A study of Mus musculus with 10 samples.

Results

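The interferon response of the liver was described here through 46 genes, taken as a given list from the 19271 genes to which the transcripts were summed. Of these, 28 are targets of type I interferon, 15 are targets that interferon gamma induces most strongly, and 3 are further interferon regulatory factors (Irf2, Irf3 and Irf5). The members were chosen by name and not by their values, although earlier results of these data were known. Liver RNA came from 10 mice of the C57BL6/N strain aged 2 months, which differed at Htra2. This gene encodes HtrA2/Omi, a serine protease of mitochondria, and its S400D allele replaces a serine by aspartate. There were 3 S400D/S400D males (homozygous), 1 S400D/S400D female, 3 S400D/WT males (heterozygous) and 3 WT/WT males (wild type). No other allele and no treatment is given in the labels for any of them. Poly(A) RNA of whole liver was sequenced, so a lower level in fewer cells of a type and a lower level per cell cannot be told apart.

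Interferons are secreted proteins through which cells answer to viral and bacterial nucleic acids. Type I interferons bind IFNAR1 and IFNAR2 and act through a complex that holds STAT2 and IRF9 and binds the interferon-stimulated response element (ISRE) in the promoters of antiviral genes. Interferon gamma, made by natural killer and T cells, binds another receptor and acts on the gamma-activated site (GAS), inducing guanylate-binding proteins, immunity-related GTPases and the antigen presentation machinery. In liver, hepatocytes, Kupffer cells and sinusoidal endothelial cells all respond.

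The promoters of the members were read for the binding words named above, from RefSeq start sites on GRCm38.p6, as windows of 300 bases that run from 250 before to 50 after each start. The ISRE was searched as GAAA, any 2 bases and GAAA, and the GAS as TTC, any 3 bases and GAA, each on both strands. The table held promoters for 35 of the 46 members. An ISRE was found in 19 of these 35 genes (54.3%), against 3.99% of the 27025 genes with a promoter in the table. It was found in 11 of 21 type I members (52.4%) and in 7 of 11 gamma-type members (63.6%), so the word was not limited to the type I members. A GAS was found in 4 of 21 type I members (19.0%) and in 5 of 11 gamma-type members (45.5%), against 9.55% of all genes. Each match is a description of letters and not a bound site. The 4 members below have an ISRE and an unadjusted p under 0.05 in a comparison of males, and their promoters are shown so that the spacing of the words can be seen. They are written 5′ to 3′ on the strand of the gene, with the ISRE in capitals.

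Isg15 (chr4:156200769-156201068, minus strand): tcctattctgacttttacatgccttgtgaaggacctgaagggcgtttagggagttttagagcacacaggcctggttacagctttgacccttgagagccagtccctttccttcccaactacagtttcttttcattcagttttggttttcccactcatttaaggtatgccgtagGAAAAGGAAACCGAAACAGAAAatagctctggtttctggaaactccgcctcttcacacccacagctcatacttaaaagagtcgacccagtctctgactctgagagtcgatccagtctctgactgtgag
Oas1g (chr5:120887564-120887863, minus strand): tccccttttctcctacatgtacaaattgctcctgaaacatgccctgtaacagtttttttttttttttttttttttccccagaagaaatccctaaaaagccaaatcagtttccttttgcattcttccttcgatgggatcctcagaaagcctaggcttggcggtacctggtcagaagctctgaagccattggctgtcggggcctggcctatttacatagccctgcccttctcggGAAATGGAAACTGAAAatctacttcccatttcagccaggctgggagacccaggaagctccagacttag
Ifih1 (chr2:62646206-62646505, minus strand): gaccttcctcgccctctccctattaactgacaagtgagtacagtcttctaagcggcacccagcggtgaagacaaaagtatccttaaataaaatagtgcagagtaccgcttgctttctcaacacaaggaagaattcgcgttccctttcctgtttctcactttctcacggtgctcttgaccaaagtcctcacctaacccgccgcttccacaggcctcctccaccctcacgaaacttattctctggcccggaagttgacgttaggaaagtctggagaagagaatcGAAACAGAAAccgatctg
Irgm2 (chr11:58214727-58215026, plus strand): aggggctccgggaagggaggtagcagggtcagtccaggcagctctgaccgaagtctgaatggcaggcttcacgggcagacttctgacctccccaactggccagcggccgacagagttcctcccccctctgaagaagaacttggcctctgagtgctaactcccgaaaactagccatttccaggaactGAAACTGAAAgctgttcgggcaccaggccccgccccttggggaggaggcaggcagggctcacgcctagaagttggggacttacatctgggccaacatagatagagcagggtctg

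In Isg15, which encodes a ubiquitin-like modifier, 3 copies of the ISRE overlap between 78 and 57 bases before the start. In Oas1g, which belongs to the oligoadenylate synthetase family, 2 overlapping copies lie between 18 and 3 bases before it. In Ifih1, the cytosolic sensor of long double-stranded RNA, the only copy lies 33 to 42 bases after the start. Irgm2, an immunity-related GTPase, differs from these 3 in that a GAS (75 to 67 bases before the start) lies next to its ISRE (64 to 55 bases before). The Ifi35 window held no ISRE and had a GAS 8 to 16 bases after the start.

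Sequencing depth was even, between 16240441 and 17264289 expected counts per library, and all 46 members passed the filter on low counts. Hepatocyte markers were abundant in every library (Alb between 49658 and 106080 CPM, counts per library total, scaled by TMM). Htra2 itself had 14.5 to 15.6 CPM in homozygous males, 13.7 in the homozygous female, 15.2 to 16.7 in heterozygous males and 12.3 to 17.3 in wild-type males. Clock genes differed between livers in a way that moves with genotype: Arntl had 17.4 to 38.1 CPM in homozygous males, 1.59 in the homozygous female, 1.17 to 31.5 in heterozygous males and 2.45 to 4.25 in wild-type males. The high value among heterozygotes belonged to male 2. The labels give no collection time, and nothing in them says whether animals share a litter or cage, so a p-value here refers to the spread among the livers alone, which may be technical.

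Per unit of transcript length (TPM), the members spanned more than 3 orders of magnitude. B2m, the light chain of MHC class I, averaged 2903 ± 539 TPM in homozygous males, 3050 ± 673 in heterozygous males and 2806 ± 343 in wild-type males (SD, n = 3 each). Next came Bst2, which tethers budding virions to the cell surface, with 267 ± 70.7, 286 ± 62.2 and 267 ± 52.8 TPM in the same order. Iigp1, an immunity-related GTPase, and Ifi27, a mitochondrial target of interferon alpha, followed at 164 ± 37.6 and 143 ± 32.1 TPM in wild-type males. These 4 genes stood above all other members in each male genotype, while the order of Iigp1 and Ifi27 lay within their spread. The lowest were Oas3, with 0.493 ± 0.156 TPM in homozygous and 0.957 ± 0.568 TPM in wild-type males, and Oas1g, with 0.580 ± 0.204 and 1.16 ± 0.539 TPM. The median wild-type level was 8.99 TPM over the type I members and 15.3 TPM over the gamma-type members.

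**Figure D1:**
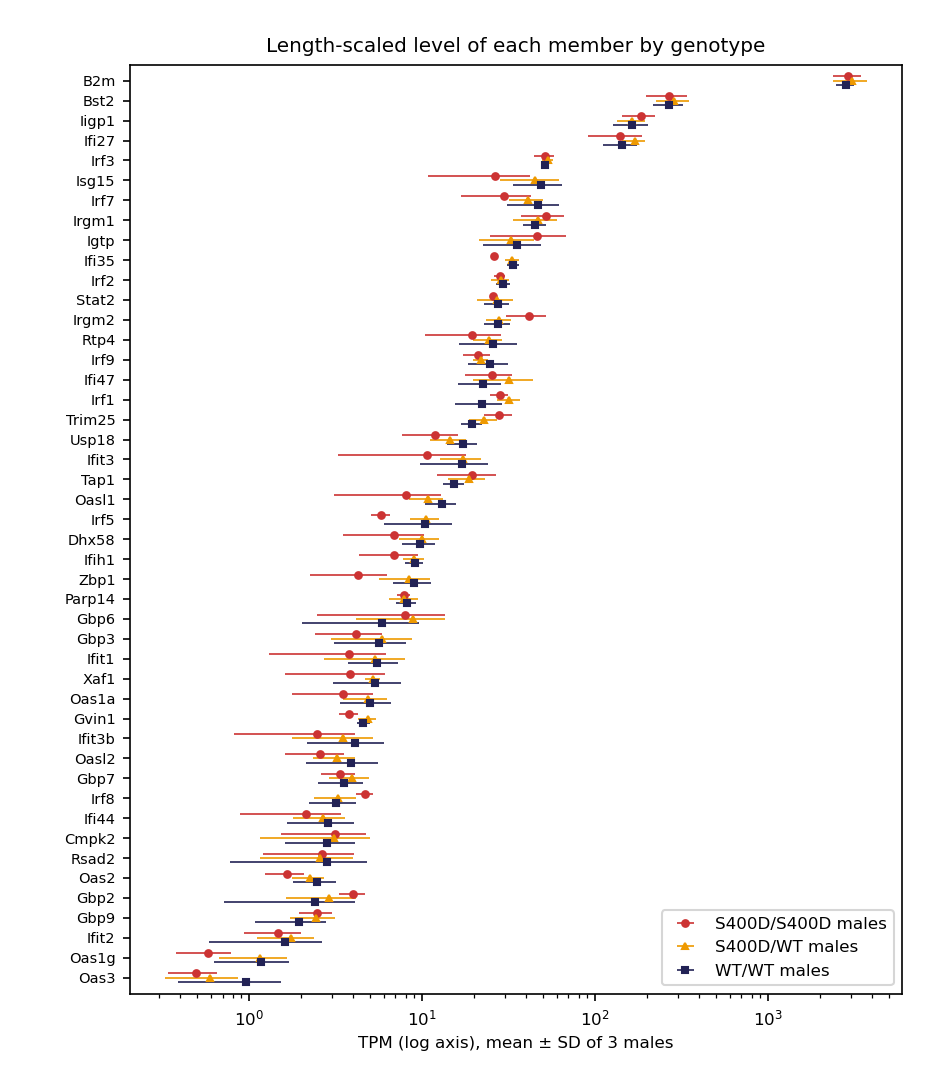
Length-scaled level of each of the 46 members (TPM, log axis; points are means and bars ± SD of 3 males) in homozygous, heterozygous and wild-type males, ordered by the wild-type level. B2m lies near 2806 TPM in wild-type males and Oas3 below 1 TPM.

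Homozygous against wild-type males: most type I members were lower in homozygotes, the gamma-type members were not, and no member passed the adjusted threshold. Of the 28 type I members, 26 were lower in homozygous than in wild-type males (median log2 fold change -0.65), while 49.3% of all 12427 genes tested were lower (median 0.00). Of the 15 gamma-type members, 4 were lower (median 0.17), and Irf2, Irf3 and Irf5 were all lower. In edgeR's quasi-likelihood test with Benjamini-Hochberg adjustment, 0 of 46 members and 0% of all genes tested had an adjusted p under 0.05. At an unadjusted p under 0.05, 12 members were lower and 2 were higher, where 8.08% and 6.82% of all genes tested were called in these directions (14 members and 14.9% of genes in either direction). DESeq2, as the other tool, called 1 member (Ifi35) and 2.47% of all genes tested, and limma-voom called 0 members and 0% of genes. The groups did not overlap for 7 members that were lower and 1 that was higher, against 11.5% and 9.27% of all genes tested.

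Ifi35, a type I target of the cytosol (chr11:101448412-101458701), had the smallest p of the members. It had 19.1, 19.4 and 19.3 CPM in homozygous males and 26.4, 28.3 and 29.5 CPM in wild-type males. The 3 homozygous males were almost equal, and all lay below every wild-type liver. The log2 fold change was -0.54 ± 0.09 (SE), with an adjusted p of 0.147 in edgeR's test and 0.00107 in DESeq2. It was as large without homozygous male 1 (-0.54 ± 0.10). Ifi35 also varied little between animals of a genotype: its log2 SD of 0.0752 was at percentile 3.62 of all genes tested. Heterozygous male 2, whose Arntl was in the range of the homozygous males, had 29.1 CPM of Ifi35. The homozygous female, whose Arntl (1.59 CPM) was below that range, had 22.7 CPM of Ifi35. This value lay above the homozygous males and below every heterozygous and wild-type liver. The part of the clock genes in the level of Ifi35 was not tested.

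The other members are given by function and not in the order of p, beginning with antiviral effectors of the type I group. Isg15 had 3.03, 12.9 and 10.3 CPM in homozygous males and 21.6, 13.0 and 18.8 CPM in wild-type males. All homozygous livers were below the wild-type ones, though male 2 only narrowly, and the log2 fold change was -1.03 ± 0.45 (edgeR adjusted p = 0.334). Among the oligoadenylate synthetases, which make the activator of RNase L, Oas2 had 3.03, 4.16 and 5.42 CPM in homozygous males, against 8.50, 5.60 and 6.83 CPM in wild-type males (log2 fold change -0.73 ± 0.25, edgeR adjusted p = 0.258). Oas1g had 0.40, 0.762 and 0.904 CPM in homozygous and 2.17, 1.03 and 1.29 CPM in wild-type males (-1.12 ± 0.45, edgeR adjusted p = 0.298). Neither overlapped between the groups. Oas1g and its neighbour Oas1a divided shared reads in all 10 libraries, so the split between them is uncertain. Oasl1, whose product lacks synthetase activity, had 4.51, 16.9 and 9.82 CPM in homozygous and 19.4, 16.1 and 20.8 CPM in wild-type males, which overlapped (-0.85 ± 0.38).

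Sensors and regulators of the type I group followed the same direction with one exception. Ifih1 had 17.7, 33.9 and 21.1 CPM in homozygous and 38.0, 36.1 and 33.6 CPM in wild-type males (log2 fold change -0.56 ± 0.21). Zbp1, a sensor of Z-form nucleic acid, had 1.83, 5.68 and 3.25 CPM in homozygous and 8.09, 4.96 and 7.75 CPM in wild-type males (-0.95 ± 0.39). Usp18, the protease that removes ISG15 and restrains the type I receptor, had 6.97, 14.5 and 15.2 CPM in homozygous and 17.8, 18.2 and 23.5 CPM in wild-type males (-0.70 ± 0.27). Of these 3, only Usp18 was separate between the groups. The exception was Trim25, a ubiquitin ligase of the RNA sensing pathway, with 118, 93.8 and 88.8 CPM in homozygous and 76.6, 73.9 and 85.4 CPM in wild-type males (0.35 ± 0.14, edgeR adjusted p = 0.285).

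The transcription factors of the response differed among themselves. Irf7, which amplifies type I interferon production, had 16.7, 43.2 and 34.2 CPM in homozygous and 56.1, 38.3 and 68.5 CPM in wild-type males (-0.79 ± 0.32). Irf9, the DNA-binding subunit of the type I complex, had 25.0, 36.1 and 32.9 CPM in homozygous and 42.2, 32.5 and 47.5 CPM in wild-type males (-0.37 ± 0.17). Stat2, its partner, had 71.0, 71.7 and 77.5 CPM in homozygous and 74.7, 88.4 and 103 CPM in wild-type males (-0.27 ± 0.16). All 3 overlapped between the groups, and Stat2 shared reads with other genes in 9 of the 10 libraries. Irf5, which acts downstream of Toll-like receptors (chr6:29526130-29541869), had 6.34, 8.20 and 7.95 CPM in homozygous and 11.4, 25.4 and 10.5 CPM in wild-type males, with no overlap. Its log2 fold change was -1.07 ± 0.32 (edgeR adjusted p = 0.228), and most of the wild-type spread came from male 2. Irf3, the first activator of interferon beta, had 63.6, 55.4 and 54.6 CPM in homozygous and 62.1, 67.1 and 66.7 CPM in wild-type males. Irf2, an antagonist of IRF1, had 45.4, 38.8 and 44.5 CPM in homozygous and 43.7, 53.4 and 54.7 CPM in wild-type males. These abundant factors varied little and overlapped between the groups (log2 fold changes -0.17 ± 0.11 and -0.24 ± 0.13).

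Among the gamma-type factors, Irf1 had 32.6, 39.5 and 34.0 CPM in homozygous and 31.6, 23.3 and 38.3 CPM in wild-type males (0.19 ± 0.19). Irf8, a factor of myeloid cells, had 7.03, 8.73 and 8.80 CPM in homozygous and 7.86, 5.86 and 4.92 CPM in wild-type males (0.40 ± 0.23). Both overlapped. Of the effectors, Irgm2 had 64.2, 94.7 and 117 CPM in homozygous and 67.5, 60.7 and 75.1 CPM in wild-type males (0.44 ± 0.20, edgeR adjusted p = 0.335), with homozygous male 1 inside the wild-type range. Gvin1, a very large interferon-inducible GTPase (chr7:106156535-106215340), ran the other way, with 20.8, 18.4 and 25.1 CPM in homozygous and 26.9, 29.7 and 31.4 CPM in wild-type males and no overlap (-0.45 ± 0.14, edgeR adjusted p = 0.239). Irgm2 shared reads with Igtp in 6 libraries, and Gvin1 shared reads with other genes in 9. The remaining gamma-type members, the guanylate-binding proteins, the other GTPases, Tap1 (which carries peptides to MHC class I) and B2m, had log2 fold changes between -0.56 and 0.60, and none had an unadjusted p under 0.05.

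**Figure D2:**
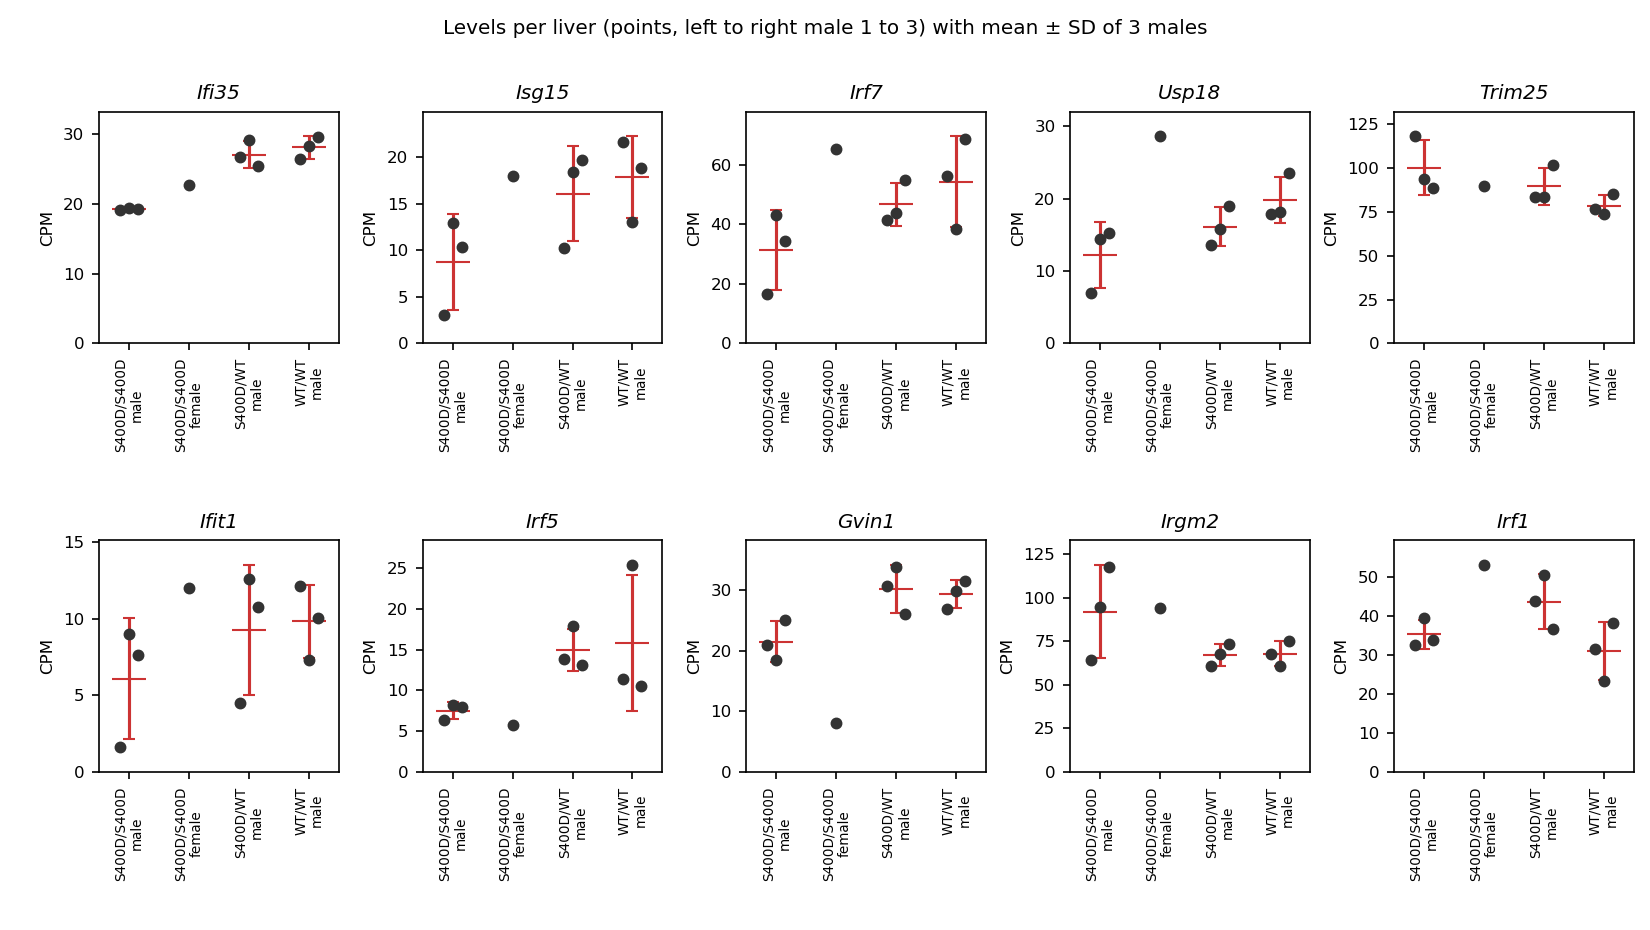
Levels (CPM) of 10 members in each of the 10 livers; points are single livers, the horizontal line is the mean and the bar ± SD of the 3 males of a genotype. Ifi35 lies near 19 CPM in the 3 homozygous males, at 22.7 CPM in the homozygous female and between 25.4 and 29.5 CPM in the other males. Isg15, Irf7, Usp18 and Ifit1 are lowest in homozygous male 1.

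One liver weighed on the type I result. Homozygous male 1 was the lowest of all 10 livers for 26 of 28 type I members (92.9%) and for 8 of 15 gamma-type members (53.3%), against 19.4% of all genes tested. It was also the highest for 15.2% of all genes tested, and both shares of all genes were the largest of any liver. The median log2 deviation of this male from the mean of the 10 livers was -1.13 over the type I members. The other livers lay between -0.18 (homozygous male 3) and 0.44 (wild-type male 1). Ifit1, which binds viral RNA, shows the size of it, with 1.6, 9.02 and 7.65 CPM in homozygous males, 12.0 in the homozygous female, 4.48, 12.6 and 10.8 CPM in heterozygous males and 12.1, 7.34 and 10.0 CPM in wild-type males. Apart from homozygous male 1, the homozygous livers were inside the range of the others. Without this male, 22 of 28 type I members were still lower in homozygous than in wild-type males, with a median of -0.35. The members with an unadjusted p under 0.05 were then 6 (Usp18, Ifi35, Irgm2, Gvin1, Tap1 and Irf5) in place of 14. Of all genes tested, 12.5% were called without this male. The number of members was 7 without homozygous male 3 (11.3% of all genes), 7 without wild-type male 1 (17.5%) and 8 without wild-type male 3 (10.9%). It was 18 without homozygous male 2 (17% of all genes) and 15 without wild-type male 2 (8.9%). The gamma-type median was 0.28 without homozygous male 1, -0.13 without homozygous male 3, and 0.01 and 0.00 without homozygous male 2 and wild-type male 2, so its sign rests on single livers.

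**Figure D3:**
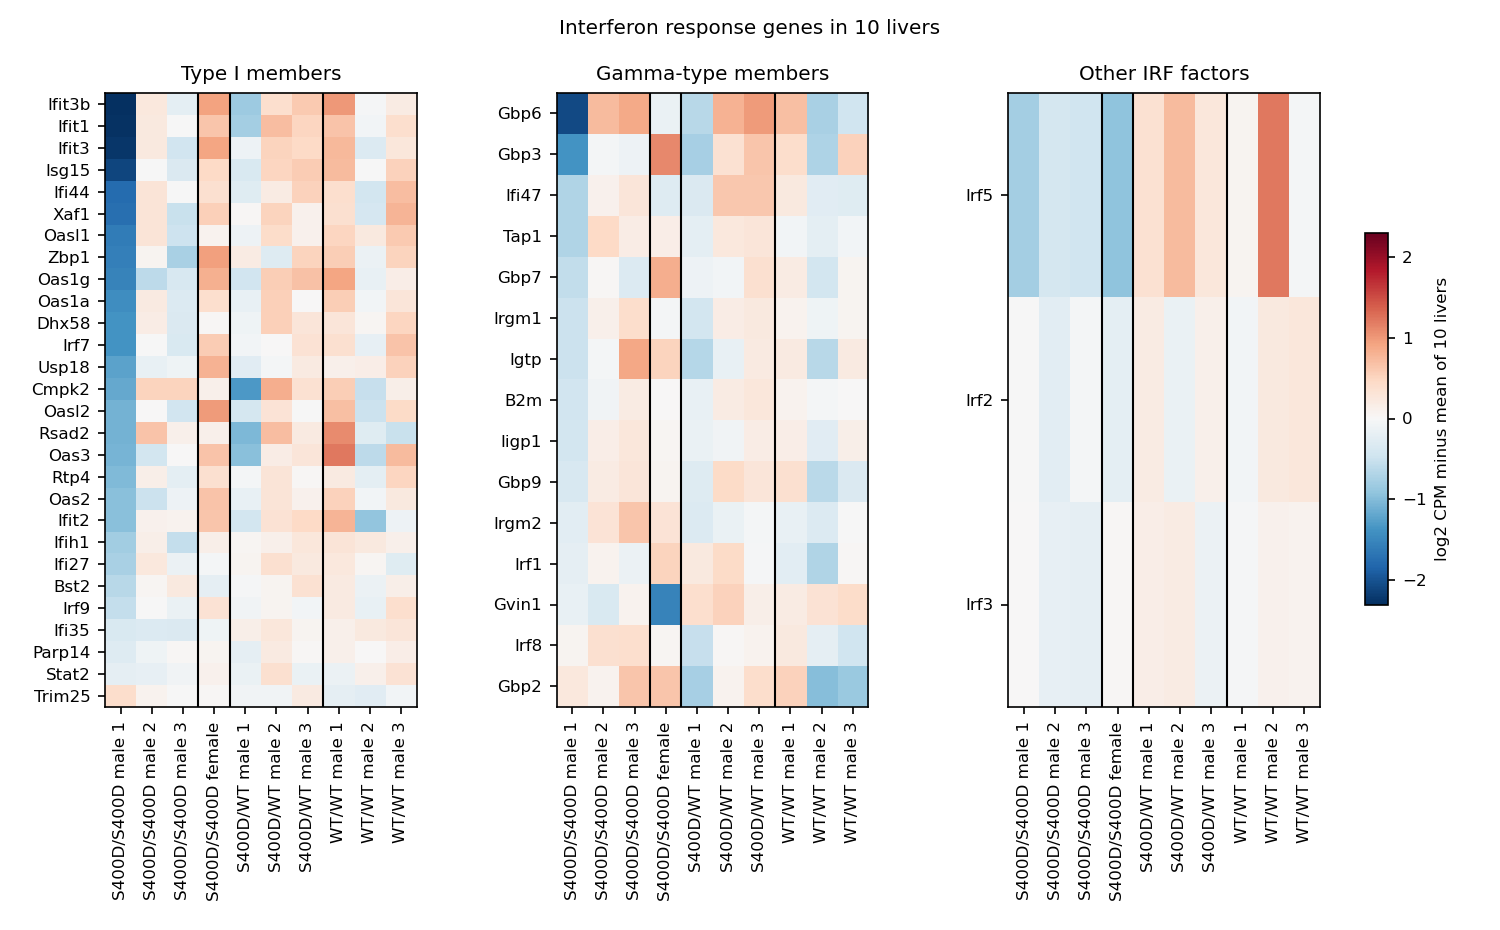
Level of each member in each liver as the difference from its mean over 10 livers (log2 CPM, colour), for the type I, gamma-type and other members. The first column, homozygous male 1, is the lowest liver for 26 of 28 type I members.

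**Figure D4:**
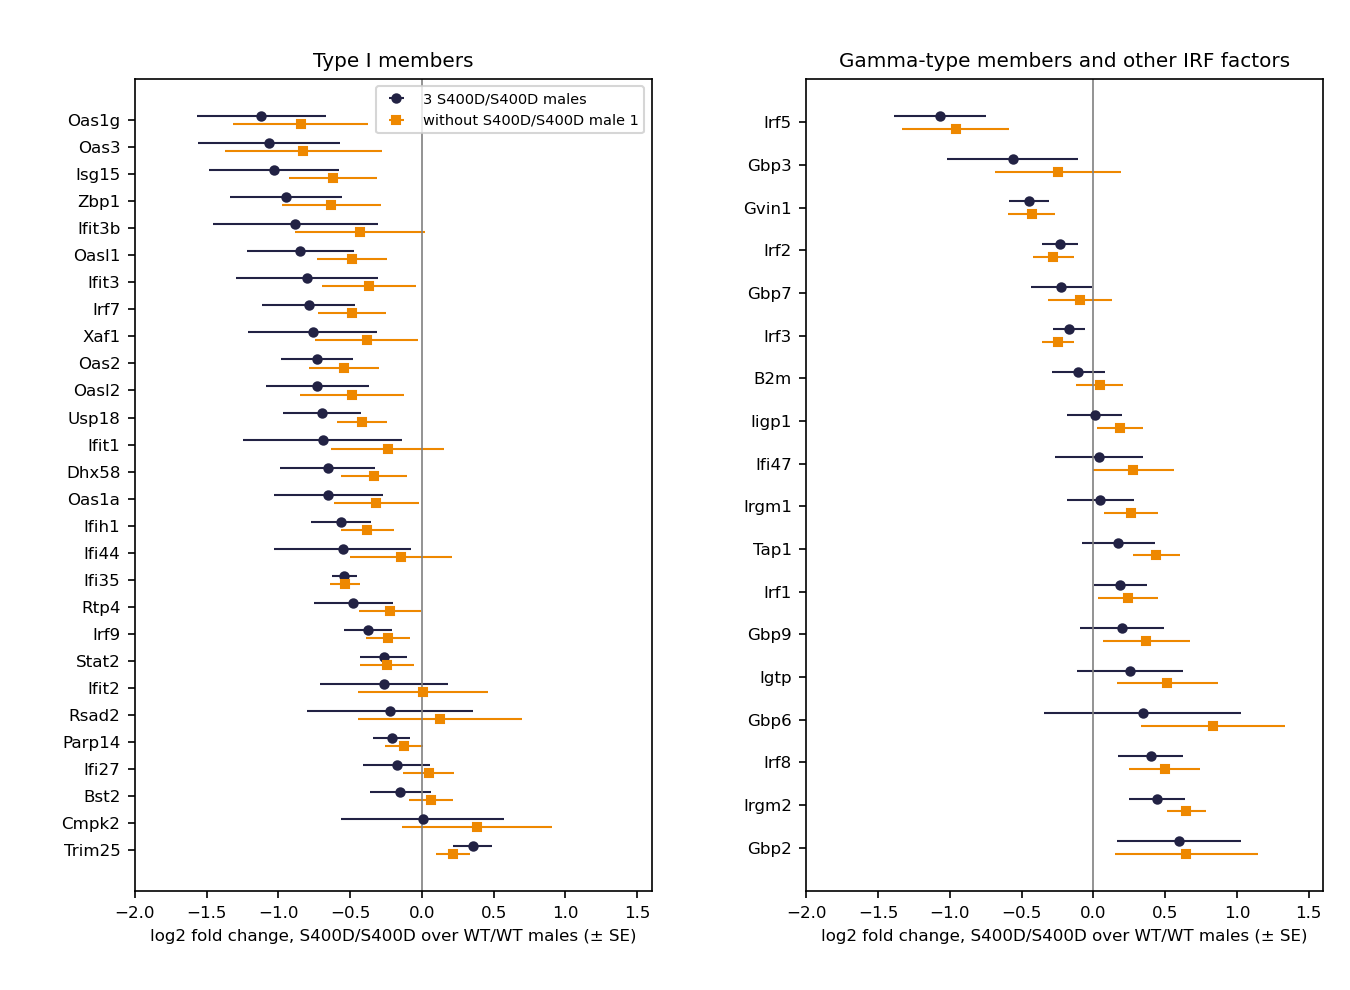
Log2 fold change of each member, homozygous over wild-type males (points, bars ± SE), with all 3 homozygous males and without homozygous male 1. Ifi35 stays at -0.54, and the type I median is -0.35 without that male.

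The livers were also compared in what surrounds the members. The 12 Kupffer cell and macrophage markers were all detected and summed to 477 to 522 CPM in homozygous males, 509 in the homozygous female, 230 to 535 in heterozygous males and 180 to 574 in wild-type males. Sinusoidal endothelial markers summed to 258 to 264, 202, 167 to 246 and 114 to 277 CPM in the same order, with all 9 detected. Natural killer cell markers, of which 3 of 7 passed the filter, summed to 2.06 to 5.18 CPM in homozygous and 0.492 to 2.52 CPM in wild-type males. None of the 3 markers of plasmacytoid dendritic cells passed it. Homozygous male 1, with the lowest type I values, had the macrophage markers above the mean of the livers (median log2 deviation 0.26), and wild-type male 3, with type I members at 0.31, had them at -1.24. Heterozygous male 2, whose Arntl (31.5 CPM) was within the range of the homozygous males, had type I members at a median deviation of 0.32. The part of the clock genes and of the macrophage, endothelial and natural killer cell markers in these results was not tested.

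**Figure D5:**
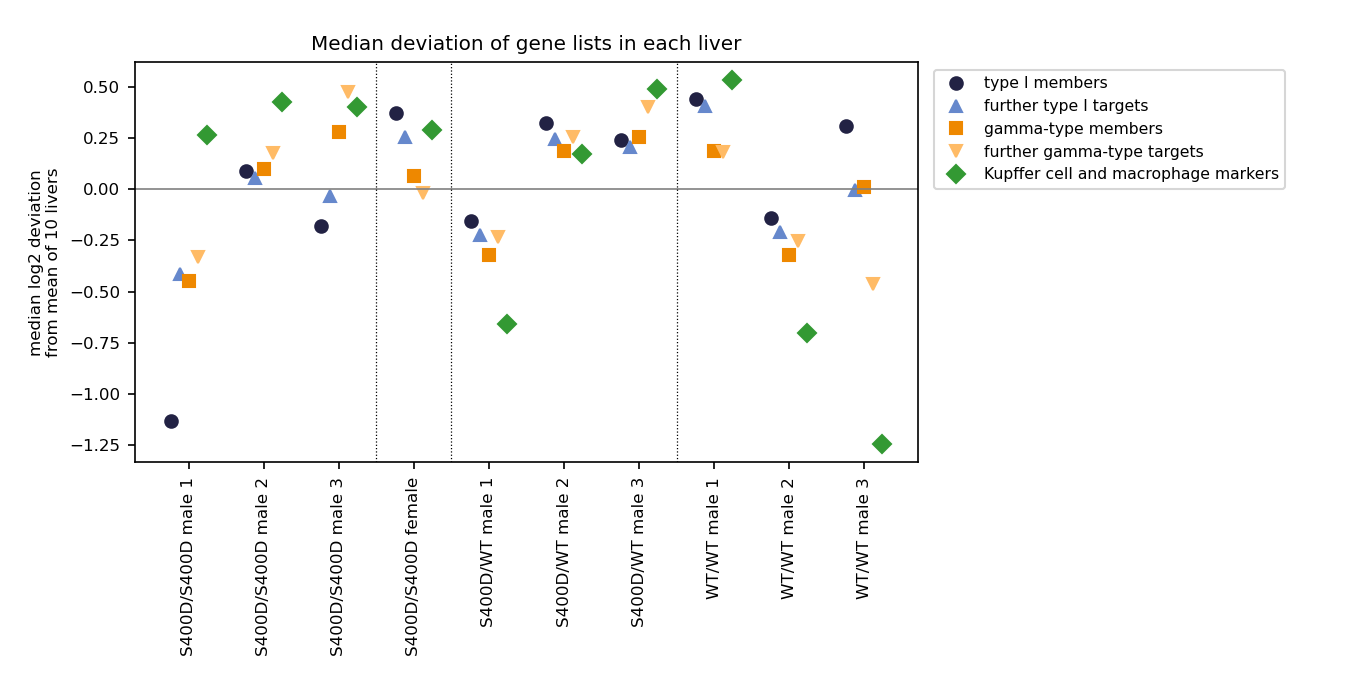
Median deviation of each gene list from the mean of 10 livers (log2) in each liver, for type I and gamma-type members, further targets of each type, and Kupffer cell and macrophage markers. Type I members lie at -1.13 in homozygous male 1, where the macrophage markers lie at 0.26.

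The rest of the pathway was read from lists of 7 ligands, 10 receptors and JAK-STAT genes, 13 sensors, 7 brakes and 64 further targets present in the table. Transcripts of the interferons among these ligands were scarce. Ifna5 and Ifnl2 had 0 reads in every library, which allows up to 3 reads, and Ifng had 1 read in 4 libraries and 0 in 6. Ifnb1, Ifna1, Ifna2, Ifna4, Ifne and Ifnl3 were not among the genes analysed, so their levels are not known here. The other ligands were interleukins, of which Il18 had the most reads (121 to 223 per library). Of the receptors and JAK-STAT genes, 8 of 9 tested were higher in homozygous than in wild-type males by small amounts (median 0.04), and 7 of 12 sensors were lower (median -0.07). The 31 tested further type I targets had 21 lower (median -0.13), and the 31 further gamma-type targets had 13 lower (median 0.12). In edgeR's test none of the 91 genes tested on these lists had an adjusted p under 0.05. At an unadjusted p under 0.05, 10 were higher and 6 were lower, together 17.6% of the 91, which is near the 14.9% of all genes tested. Psmb10, an immunoproteasome subunit, had the smallest p, with 23.6, 26.7 and 26.1 CPM in homozygous and 35.1, 32.2 and 39.0 CPM in wild-type males. These groups did not overlap, and the log2 fold change was -0.47 ± 0.10 (edgeR adjusted p = 0.156). Ifitm3, which blocks viral entry, had 181, 272 and 265 CPM in homozygous and 314, 374 and 498 CPM in wild-type males (-0.72 ± 0.20). Tgtp1, a gamma-induced GTPase, had 18.8, 28.4 and 57.8 CPM in homozygous and 12.1, 6.18 and 6.71 CPM in wild-type males (2.07 ± 0.57). Icam1, an adhesion molecule, had 18.7, 16.3 and 16.5 CPM in homozygous and 13.3, 12.4 and 11.8 CPM in wild-type males (0.46 ± 0.13). All 4 were separate between the groups, but they were named by smallest p, which favours this. Of all genes tested, 9.27% were separate and higher and 11.5% separate and lower.

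Heterozygous against wild-type males, which shares the wild-type livers with the comparison above, gave smaller values. Of the type I members, 22 of 28 were lower in heterozygous males, with a median log2 fold change of -0.09, and of the gamma-type members 4 of 15 were lower (median 0.08), where 48.4% of all genes tested were lower. In edgeR's test 0 members and 0% of all genes had an adjusted p under 0.05. DESeq2 and limma-voom called 0 members as well, with 0.0563% and 0% of all genes tested. At an unadjusted p under 0.05, 1 member was higher and 0 were lower (1.67% and 2.52% of all genes tested, 4.19% in either direction). This was Irf1, with 43.9, 50.7 and 36.7 CPM in heterozygous and 31.6, 23.3 and 38.3 CPM in wild-type males, which overlapped (0.49 ± 0.19, edgeR adjusted p = 0.972). No member had groups that did not overlap, in either direction, where 4.56% of all genes were separate and higher and 5.8% separate and lower. Leaving out heterozygous male 2 gave 0 members at an unadjusted p under 0.05 (2.87% of all genes tested). Leaving out wild-type male 1 gave 3 (10.2%) and leaving out wild-type male 2 gave 2 (2.66%). Without heterozygous male 1, 12 of 28 type I members were lower (median 0.03), and without wild-type male 1, 15 were (median -0.02). On log2(FPKM + 1), 13 were lower (median 0.01). The type I median was -0.22 without heterozygous male 2, -0.26 without wild-type male 2 and -0.05 without wild-type male 3. The gamma-type median was -0.01 without heterozygous male 3 and -0.02 without wild-type male 2, so neither list had a direction that held across these settings. Ifi35 had 26.7, 29.1 and 25.4 CPM in heterozygous males, inside or next to the wild-type range (-0.05 ± 0.09). Among the pathway genes, Ifitm1 had 4.05, 5.14 and 5.92 CPM in heterozygous and 3.52, 2.06 and 2.65 CPM in wild-type males (0.88 ± 0.25). Nlrc5, the transactivator of MHC class I genes, had 26.0, 29.3 and 25.6 CPM in heterozygous and 32.2, 35.7 and 45.9 CPM in wild-type males (-0.49 ± 0.15). Socs3, a brake on cytokine receptors, had 8.91, 6.49 and 5.52 CPM in heterozygous and 14.0, 9.78 and 12.0 CPM in wild-type males (-0.78 ± 0.30). Il15, a cytokine of natural killer cells, had 0.553, 1.06 and 1.07 CPM in heterozygous and 1.82, 1.35 and 1.72 CPM in wild-type males (-0.86 ± 0.40). All 4 were separate between the groups, but they were named by smallest p, which favours this.

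Homozygous against heterozygous males gave the type I direction again, with the same homozygous livers. Of the type I members, 27 of 28 were lower in homozygous males (median log2 fold change -0.47), and of the gamma-type members 9 of 15 (median -0.11), where 49.6% of all genes tested were lower. In edgeR's test 0 members and 0% of all genes had an adjusted p under 0.05. DESeq2 called 1 member (Ifi35) and 4.38% of all genes tested, and limma-voom called 0 members and 0% of genes. At an unadjusted p under 0.05, 6 members were lower (Ifi35, Gvin1, Irf5, Oas1g, Ifih1 and Oas2) and 1 was higher (Irgm2), where 8.92% and 8.25% of all genes tested were called. In either direction these were 7 members and 17.2% of genes. Groups did not overlap for 3 members that were lower, Ifi35, Gvin1 and Irf5, and for 0 that were higher, against 11.7% and 10.7% of all genes. Ifi35 had 19.1, 19.4 and 19.3 CPM in homozygous males and 26.7, 29.1 and 25.4 CPM in heterozygous males (-0.49 ± 0.09, edgeR adjusted p = 0.104, DESeq2 adjusted p = 0.00298). Irf5 had 6.34, 8.20 and 7.95 CPM in homozygous and 13.8, 17.9 and 13.1 CPM in heterozygous males (-0.996 ± 0.32, edgeR adjusted p = 0.183). Gvin1 had 20.8, 18.4 and 25.1 CPM in homozygous and 30.7, 33.8 and 26.0 CPM in heterozygous males (-0.49 ± 0.14, edgeR adjusted p = 0.148). For these 3 genes the homozygous males lay below both other male genotypes. Of all genes tested, 11.5% were separate and lower against wild-type males and 11.7% against heterozygous males. The share below both was not counted. Irgm2 had 64.2, 94.7 and 117 CPM in homozygous and 60.7, 67.8 and 73.3 CPM in heterozygous males, which overlapped. The number of members at an unadjusted p under 0.05 was 15 without homozygous male 2 (20.9% of all genes tested). It was 3 without heterozygous male 2 (16.3%) and 4 without heterozygous male 3 (13.2%). Without homozygous male 1 the type I median was -0.17 and the gamma-type median was 0.20. The gamma-type median was 0.01 without heterozygous male 2 and 0.03 without heterozygous male 3. Of the pathway genes, Psmb10 had 23.6, 26.7 and 26.1 CPM in homozygous and 39.1, 36.5 and 36.2 CPM in heterozygous males (-0.55 ± 0.10, edgeR adjusted p = 0.104). Tap2, the partner of Tap1, had 24.4, 33.9 and 26.0 CPM in homozygous and 37.6, 41.6 and 39.1 CPM in heterozygous males (-0.49 ± 0.13). Both were separate between the groups, as were Psme1 (-0.48 ± 0.14) and Ifitm3 (-0.59 ± 0.20). These 4 were named by smallest p, which favours separate groups, and 11.7% of all genes tested were separate and lower.

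The homozygous female was 1 animal, so sex and animal cannot be told apart, and its spread is assumed to be that of the males. Of the type I members, 25 of 28 were higher in the female than in the mean of the homozygous males (median log2 fold change 0.71), and of the gamma-type members 10 of 15 (median 0.03). Among all genes tested, 51.7% were lower in the female (median -0.01). In edgeR's test 10 of 12954 genes (0.0772%) had an adjusted p under 0.05, and 0 of them were members. DESeq2 called 1 member (Gvin1) and 0.803% of all genes tested, and limma-voom called 0 members and 0.116% of genes. At an unadjusted p under 0.05, 10 members were higher and 1 was lower, where 5.21% and 5.13% of all genes tested were called (11 members and 10.3% of genes in either direction). The female lay above all 3 homozygous males for 24 members and below them for 3, against 27.3% and 27.1% of all genes. It was above all 9 males for 5 of 28 type I members (17.9%), against 11.8% of all genes tested. Wild-type male 1 was the highest of the 10 livers for 8 type I members, wild-type male 3 for 7 and heterozygous male 2 for 6. Usp18 had 28.6 CPM in the female and 6.97, 14.5 and 15.2 CPM in homozygous males (1.23 ± 0.35, edgeR adjusted p = 0.342). Irf7 had 65.4 CPM in the female and 16.7, 43.2 and 34.2 CPM in homozygous males (1.06 ± 0.43). Gbp7, a guanylate-binding protein, had 26.1 CPM in the female and 9.94, 15.0 and 11.7 CPM in homozygous males (1.09 ± 0.28, edgeR adjusted p = 0.327). For these 3 the female was above every homozygous male. Gvin1 was the exception, with 8.12 CPM in the female and 20.8, 18.4 and 25.1 CPM in homozygous males. No other liver had less than 18.4 CPM of it. Its log2 fold change was -1.40 ± 0.22, with an adjusted p of 0.124 in edgeR's test and 0.000108 in DESeq2. The number of members at an unadjusted p under 0.05 was 19 without homozygous male 2 (13.4% of all genes tested) and 8 without homozygous male 1 (11.6%). Without homozygous male 1 the type I median was 0.41, with 5 of 28 lower in the female, and the gamma-type median was -0.17, with 10 of 15 lower. Among the pathway genes, Psmb10 had 38.2 CPM in the female and 23.6, 26.7 and 26.1 CPM in homozygous males (0.59 ± 0.14, edgeR adjusted p = 0.327). This value was within the range of the heterozygous and wild-type males. Among the members, Irf5 lay on the other side, with 5.73 CPM in the female. That was below every homozygous male and the lowest of the 10 livers. The part of the S400D alleles in these values of the female was not tested. Trim24, a repressor of interferon targets, had 87.5 CPM in the female and 51.0, 17.3 and 14.7 CPM in homozygous males. Ifi213 had 5.00 CPM in the female and 0.971, 2.17 and 2.23 CPM in homozygous males, and Traf3, an adaptor of the sensors, had 7.15 CPM in the female and 10.97, 10.1 and 13.0 CPM in homozygous males. Psmb10, Trim24, Ifi213 and Traf3, named by smallest p, lay outside the range of the homozygous males. Of all genes tested, 27.3% lay above that range and 27.1% below it. In clock genes the female was on the side of the wild-type males, with Arntl at 1.59 CPM, and its macrophage markers summed to 509 CPM, inside the range of the homozygous males.

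The members differed in how much they varied between animals of 1 genotype. The pooled SD between males of a genotype, on the log2 scale, had a median of 0.54 over the type I members, 0.35 over the gamma-type members and 0.16 over Irf2, Irf3 and Irf5, against 0.22 over all genes tested. Gbp6, a guanylate-binding protein, varied most (1.17), with 4.40, 30.4 and 33.8 CPM in homozygous, 11.9, 32.3 and 36.2 CPM in heterozygous and 29.6, 10.9 and 13.4 CPM in wild-type males. Each genotype held both low and high livers. Gbp6 shared reads with other genes in 9 of the 10 libraries, so its level is less certain. For the type I members, the median SD within homozygous males was 0.61, against 0.31 within heterozygous and 0.36 within wild-type males. Over all genes tested, these medians were 0.21, 0.18 and 0.17 in the same order. The median log2 deviation of the type I members was -1.13 in homozygous male 1, against 0.09 and -0.18 in the other homozygous males. Whether the larger SD within homozygous males holds without homozygous male 1 was not tested.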

How the data were processed

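RNA of 10 mouse livers was sequenced after poly(A) selection, per the labels' protocols. The authors deposited expected counts (estimated, not normalised) and TPM and FPKM values (scaled by them to transcript length and library total) for 77712 transcripts. HISAT, Bowtie2 and GRCm38.p6 are named in the submitters' processing notes; their versions, and the program that counted, were not given in the sources used here. Transcripts were summed to 19271 genes and rounded. Sums above 0 were whole (to 0.05 reads) in 94.5% of cases; 15 members had divided reads in some library. The 9 columns of the authors' group means were not used.

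edgeR 4.0.16 (R 4.3.3; TMM, filterByExpr, glmQLFit, glmQLFTest) was fitted to the 9 males (12427 genes) and, for the female, to all 10 livers (12954 genes), with Benjamini-Hochberg adjustment over all genes and a threshold of 0.05, after a test on simulated data. TPM was compared only between genes; FPKM served an alternative. Alternatives were DESeq2 1.42.0, limma 3.58.1 (voom, and log2 of FPKM plus 1 or 0.1), other scalings and filters, a replicate block, a length trend and leaving out each male. Every liver's value is given for members with an unadjusted p under 0.05 among males and for IRF and STAT factors; up to 4 pathway genes per comparison were named by smallest p. Members and lists were chosen with earlier results of these data known. Gene positions and promoters are from RefSeq (GRCm38.p6). The limit given for 0 reads covers counting error only. SD measures the spread between livers. SE is the size of the log2 fold change divided by the square root of the F value of edgeR's test. It thus holds counting error and a spread estimate that borrows from other genes and from all groups in the fit.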

Additional observations from a re-analysis of the deposited data

How the results depend on the processing

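Alternatives were run for 37 fold changes, those of the members with an unadjusted p under 0.05 or, where these were fewer than 5, the 5 smallest p of a comparison. Of their 665 values, 0 reversed, 662 kept their direction and stayed short of the adjusted threshold, and 3 passed it. The 3 were the DESeq2 values of Ifi35 (homozygous against wild-type and against heterozygous males) and Gvin1 (female against homozygous males). DESeq2 thus called 1 member in each of these comparisons, where edgeR called 0 members. Of all genes tested, DESeq2 called 2.47%, 4.38% and 0.803% in the same order. Among all 46 members, leaving out homozygous male 1 turned the sign of 5 against wild-type males (Ifit2, Rsad2, Ifi27, Bst2 and B2m) and of 5 against heterozygous males (Rsad2, Cmpk2, Gbp6, Gbp9 and Tap1). Between homozygous and wild-type males, 14 members had an unadjusted p under 0.05 (14.9% of all genes tested). There were 9 with library size alone (13.7% of genes), 8 with only these groups in the fit (13.6%) and 9 with log2(FPKM + 0.1) (14.7%). Leaving out 1 male gave 6 to 18 members (8.9% to 17.5% of genes). Between heterozygous and wild-type males there was 1 (4.19% of genes), and leaving out males gave 0 to 3 (2.06% to 10.2%). Between homozygous and heterozygous males there were 7 (17.2% of genes). Only these groups in the fit gave 4 (14.9%), and leaving out males gave 3 to 15 (12% to 20.9%). The gamma-type median (-0.11) ranged from -0.30 to 0.20. Between the female and homozygous males there were 11 (10.3% of genes). Leaving out males, chosen after seeing the data, gave 8 to 19 (7.09% to 13.4%). The cause of these shifts was not tested. With the replicate number as a block, the members with an unadjusted p under 0.05 were 12, 0 and 6 in the 3 comparisons of males. In the same order, 12.8%, 3.35% and 14.9% of all genes tested were called. Same-numbered males did not deviate together: 2 of 9 pairs had a correlation over 0.1 (range -0.43 to 0.19), and a male correlated best with its own number in 4 of 18 cases. Depth limits the lowest members most, with 7 reads of a type I member at the least.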
